A study of Homo sapiens with 4 samples.

Results

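Autophagy is the route by which a cell encloses cytoplasm in a membrane sac, the autophagosome, and delivers it to the lysosome for digestion. The ULK1 kinase complex starts the process, a PI3-kinase complex marks the site with a lipid, lipid transfer proteins enlarge the membrane, and a pair of ubiquitin-like conjugation systems attach ATG8 proteins such as LC3 to it. Lysosomes supply the acid hydrolases, and the transcription factors TFEB, TFE3 and MITF are known for driving many genes of both compartments. The 44 genes described here were chosen by name for these roles, and 43 of them had a row among the 19749 gene symbols of the deposited table. All 43 passed the authors' filter on low levels and were tested. ATG101 had no row under that symbol.

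The study measured poly(A) RNA of U87, an established human glioblastoma line, in 2 libraries per group. The YZ129 group had 24 h with 5 µM of this small molecule, and the other group had the vehicle DMSO. The exposure time of the DMSO group is not in the labels. The series title concerns inhibitors of the HSP90, calcineurin and NFAT pathway in glioblastoma, and the comparison asks which transcripts differ with the compound. Whether libraries of 1 group are separate cultures is not in the labels, so p-values measure only the spread between libraries, which may be technical. Only the authors' comparison was used here, 1 row per gene, so no value per library, no overlap of groups and no effect of leaving out a library can be given.

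Per gene, the authors' deposited table gives a mean level (read counts divided by library size factors, averaged) and a log2 fold change, whose standard error (SE) follows each ± sign. The mean level was an average over 8 libraries, 4 more than the samples described, as read from its smallest values. Mean levels are therefore given only as a sign of the depth behind a value, not as expression in these samples. "Rose" and "fell" stand for an adjusted p under 0.05 there, and its column names are the ones DESeq2 writes. The table does not name its numerator, and its name puts DMSO first. Positive values were read as higher with YZ129 because loss of HSP90 function is known to induce cytosolic heat shock genes. Of 20 such genes 11 were called on the positive side and 0 on the negative side. Over all tested genes these shares were 5.24% and 7.64%. A list of 16 hypoxia-induced genes, also set out for this check, had 0 calls on the positive side and 16 on the negative side. No direction was stated for that list, so it does not enter the reading of the sign. Both lists were chosen with earlier results of these data known. With the opposite reading each direction below turns around, with no effect on sizes or p-values. Among markers of the labelled cell type, VIM and CD44 had mean levels of 298885 and 134994 by the authors' deposited table. GFAP was at 52.2, and S100B at 1.12 and SOX2 at 0.851 were too low to be tested by the authors' deposited table. Of the 5 tested markers of this list 3 fell (VIM, CD44 and NES) and 0 rose, against 7.64% and 5.24% of all tested genes. The other tested markers did not pass: OLIG2 had a positive value (0.82 ± 0.33, adjusted p = 0.079) and GFAP a negative one (-0.56 ± 0.39, adjusted p = 0.38). Of 6 markers of other cell types only PECAM1 and EPCAM, at 24.6 and 18.1, had enough reads to be tested by the authors' deposited table, and neither passed.

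Most of the autophagy and lysosome transcripts did not pass the test. ATG7 and GABARAP fell, NPC1 rose, and 40 of the 43 did not pass. The share called, 6.98%, lay below the 12.9% of all 14812 tested genes. By direction, 1 of 43 rose and 2 fell, and 5.24% of all tested genes rose and 7.64% fell. Of all calls 40.7% were rises, a share that became 51.9% when fold changes were set against the median of all tested genes. At mean levels of 1000 or more, where 36 of the 43 lay, 13.9% of genes were called. In bulk RNA a change in the kinds of cells present and a change in RNA per cell cannot be told apart. The median change of the 43 was 0.01, with 22 positive and 21 negative values, against a median of -0.05 for all tested genes and -0.11 for those at 1000 or more. At an unadjusted p under 0.05, 6 were higher and 3 lower (20.9%), against 24.9% of all tested genes (10.5% higher and 14.5% lower). No list test was made, since the genes were chosen with earlier results of these data known.

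**Figure D1:**
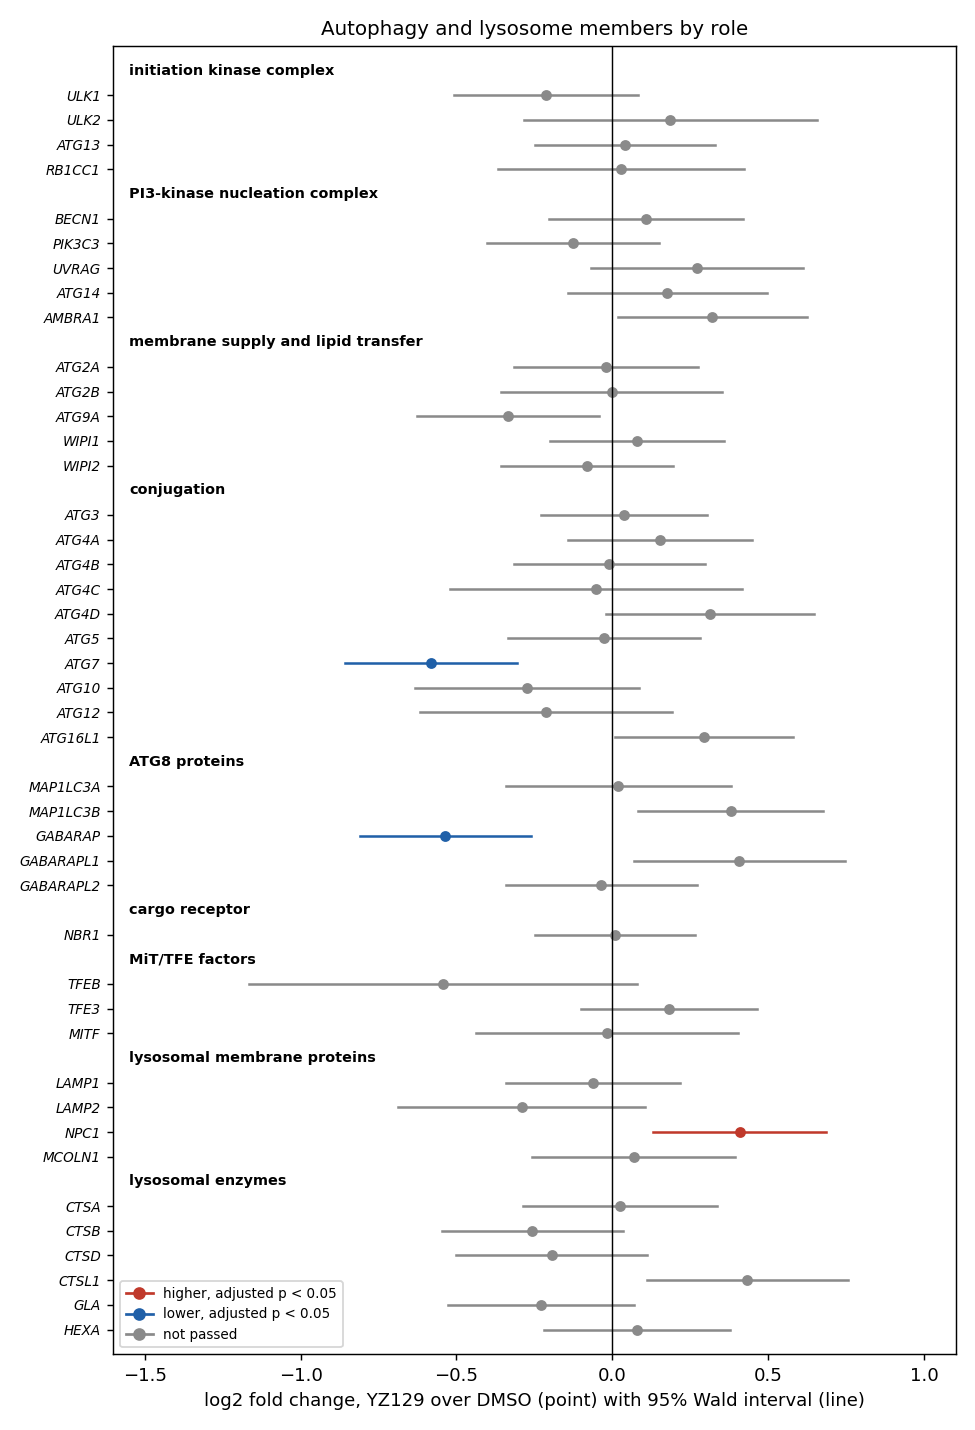
Log2 fold change of YZ129 over DMSO for the 43 tested genes, grouped by role, from the authors' table (n = 2 libraries per group). Points are the deposited estimates and lines their 95% Wald intervals; ATG7 and GABARAP lie below 0 and NPC1 above it in colour, and the 40 grey genes did not pass an adjusted p of 0.05.

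The deposited SE shows what size of deposited change could be called. The SE of the 43 ranged from 0.13 to 0.32 with a median of 0.16 by the authors' deposited table. A gene with that median SE had to change by 0.42 on the log2 scale to be called. For 39 of the 40 genes that did not pass, the 95% Wald interval lay within a 2-fold change either way, and for 28 it lay within 1.5-fold. The exception at 2-fold was TFEB. Deposited fold changes were already drawn towards 0, most of all for genes with few reads. The intervals lie around these estimates and do not bound the change before it was drawn in. They also rest on a spread between libraries that may be technical. ATG7, GABARAP and TFEB, or 6.98% of the 43, had estimates beyond 0.5 in size. Of all tested genes 19.2% did, and of those at mean levels of 1000 or more 9.87%. TFEB, at a mean level of 75.0, was 1 of 7 among the 43 that lay below 1000.

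**Figure D2:**
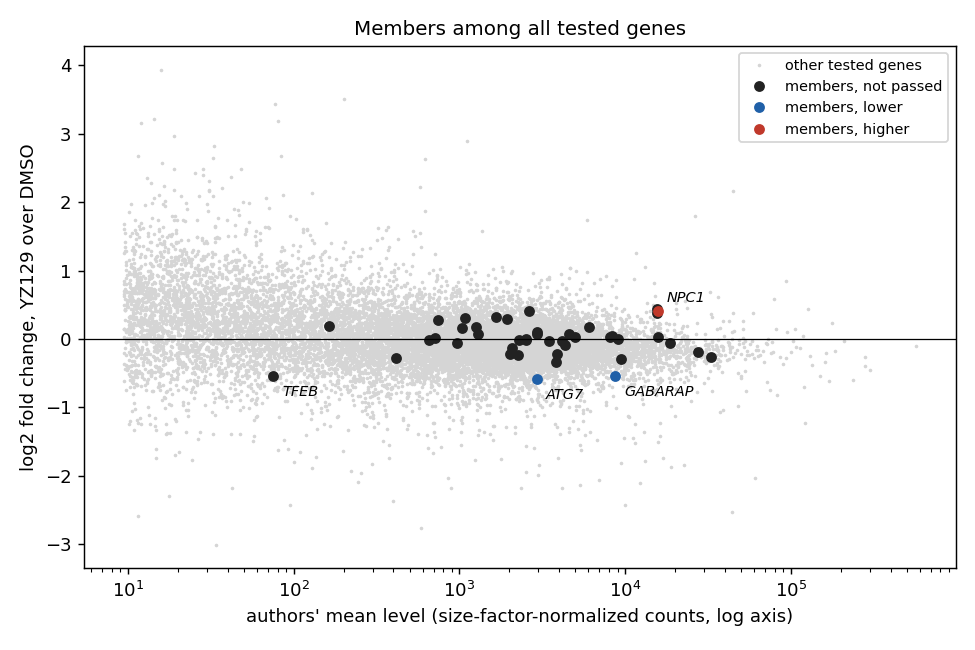
Log2 fold change of YZ129 over DMSO against the authors' mean level (log axis) for all 14812 tested genes (grey) and the 43 autophagy and lysosome genes (large points). The 43 lie between -0.58 and 0.43, inside a cloud that reaches from -3.0 to 3.9. TFEB, at a mean level of 75.0, is marked beside the 3 called genes.

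The transcription factors of the pathway gave 0 calls among 3 genes by the authors' DESeq2-type table, also at an unadjusted p of 0.05. With 3 genes, this is not read as differing from the 12.9% of all tested genes called. TFEB, which enters the nucleus when its phosphorylation by mTORC1 at the lysosome is lost, had -0.54 ± 0.32 (SE; adjusted p = 0.28) at a mean level of only 75.0 by the authors' deposited table. Its 95% interval ran from -1.17 to 0.08, so a fall of over 2-fold and no change could not be told apart at this depth. TFE3, its close relative, stood at 0.18 ± 0.14 with a mean level of 6032 by the authors' deposited table. MITF, the melanocyte lineage factor of the same family, stood at -0.02 ± 0.21 by the authors' deposited table. The activity of these factors is regulated largely by their location in the cell, which transcript levels do not show.

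These factors bind an E-box, whose core CACGTG reads the same on both strands, and a longer palindrome around it is typical of lysosomal genes. Promoter windows of RefSeq (GRCh38.p14, 250 bases before to 50 after a start) were searched for CACGTG and for 2 palindromes that contain it: the 8-base TCACGTGA, and a 10-base one with GT before the core and AC after it. A match to a longer motif is also a match to the shorter ones. A window was found for 37 of the 44 genes. RB1CC1, UVRAG, ATG4D, MAP1LC3A, LAMP2, CTSB and HEXA had no entry. The core occurred in 4 of 7 lysosomal enzymes and membrane proteins with a window (57.1%), in 2 of the other 30 genes (6.67%), and in 8.77% of all 27305 genes of the table. The 8-base palindrome occurred in 3 of the 7, in 1 of the 30 and in 1.18% of all genes. The 10-base palindrome occurred in MCOLN1 alone among the 37, and in 0.421% of all genes. In the further pathway lists described below, the core occurred in 6 of 25 other hydrolases and activators (24.0%) and 4 of 19 other lysosomal membrane proteins (21.1%). Its share was 8.33% for other autophagy machinery, 28.6% for vacuolar ATPase subunits, 36.8% for nutrient sensing and 45.5% for mannose 6-phosphate sorting. The counts describe letters in these windows and do not show binding.

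The upstream bases of the 6 genes with a core match are shown because they carry the letters these factors are known to read, with the longest matching motif in capitals, 5′ to 3′ and ending at the base before the start site. LAMP1 is shown over 250 bases for its 5 upstream matches, and the others over the last 60. A further match of LAMP1 spans the start site, and a further match of ATG3 lies behind it, so neither is printed in capitals.
LAMP1 (chr13:113296989-113297238, plus strand): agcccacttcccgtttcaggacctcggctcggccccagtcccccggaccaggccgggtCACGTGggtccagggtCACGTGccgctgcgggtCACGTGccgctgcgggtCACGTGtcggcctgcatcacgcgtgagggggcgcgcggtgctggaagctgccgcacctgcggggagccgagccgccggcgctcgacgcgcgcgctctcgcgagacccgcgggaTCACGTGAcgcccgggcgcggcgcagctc
MCOLN1 (chr19:7522564-7522623, plus strand): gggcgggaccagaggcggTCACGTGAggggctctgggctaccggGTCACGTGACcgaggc
CTSA (chr20:45891275-45891334, plus strand): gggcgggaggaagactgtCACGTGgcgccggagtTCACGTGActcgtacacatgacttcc
CTSD (chr11:1763928-1763987, minus strand): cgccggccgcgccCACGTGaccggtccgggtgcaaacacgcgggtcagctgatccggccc
ATG14 (chr14:55411831-55411890, minus strand): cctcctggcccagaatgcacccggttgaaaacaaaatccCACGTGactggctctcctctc
ATG3 (chr3:112561963-112562022, minus strand): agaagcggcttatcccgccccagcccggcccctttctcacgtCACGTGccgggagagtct

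**Figure D3:**
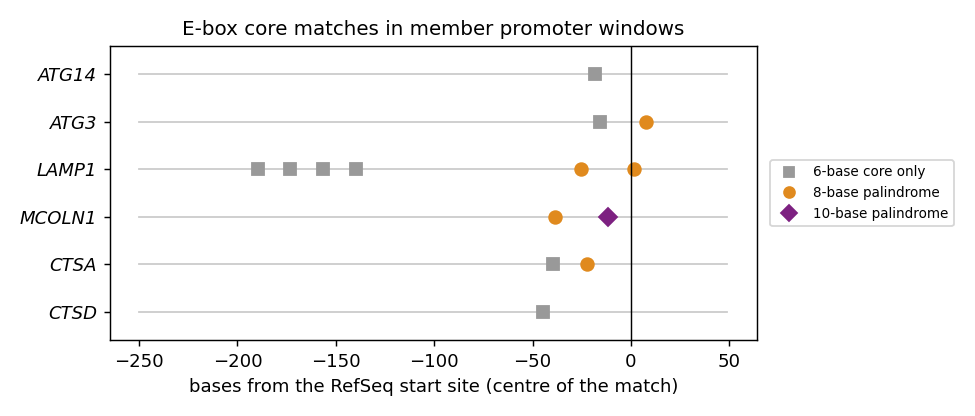
Position of each CACGTG core, in bases from the RefSeq start site, in the windows of the 6 genes that hold one; the symbol gives the longest motif matched. LAMP1 has 6 matches, MCOLN1, CTSA and ATG3 have 2 each, and CTSD and ATG14 have 1 each.

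None of these 6 genes passed the test, against 12.9% of all tested genes called. With 6 genes, this is not read as a difference. Of all tested genes with the core, 14.4% were called, against 12.8% of those with a window. Values of the 6 by the authors' deposited table lay between -0.19 for CTSD and 0.18 for ATG14. LAMP1, with the most matches, stood at -0.06 ± 0.14 and MCOLN1, with the full palindrome, at 0.07 ± 0.17 by the authors' deposited table. The 3 genes that did change held no core in their windows. Most of the 37 genes with a window lacked it too, as it occurred in 6 of them (16.2%). Whether the core goes with a change was not tested. The 250 upstream bases of each of the 3 genes are shown for comparison.
ATG7 (chr3:11272147-11272396, plus strand): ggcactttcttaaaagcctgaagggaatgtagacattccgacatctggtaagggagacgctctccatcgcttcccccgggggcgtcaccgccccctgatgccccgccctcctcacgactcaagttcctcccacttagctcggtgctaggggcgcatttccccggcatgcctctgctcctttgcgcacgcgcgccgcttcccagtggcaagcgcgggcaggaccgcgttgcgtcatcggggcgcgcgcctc
GABARAP (chr17:7242450-7242699, minus strand): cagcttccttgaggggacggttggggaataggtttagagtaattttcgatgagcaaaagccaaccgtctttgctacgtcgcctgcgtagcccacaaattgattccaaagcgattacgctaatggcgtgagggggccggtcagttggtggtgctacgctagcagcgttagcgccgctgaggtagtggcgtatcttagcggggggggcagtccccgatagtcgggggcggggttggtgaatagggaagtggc
NPC1 (chr18:23586507-23586756, minus strand): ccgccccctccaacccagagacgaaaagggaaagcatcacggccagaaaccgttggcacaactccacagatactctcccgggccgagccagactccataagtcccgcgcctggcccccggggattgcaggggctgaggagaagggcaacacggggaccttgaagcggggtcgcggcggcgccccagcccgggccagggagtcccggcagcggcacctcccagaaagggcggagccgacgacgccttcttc

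The initiation complex gave 0 calls among 4 tested genes by the authors' DESeq2-type table, and 0 at an unadjusted p of 0.05. Here and for each role below, counts this small are not read as differing from the 12.9% of all tested genes called. ULK1, the kinase that receives the signals of mTORC1 and AMPK, stood at -0.21 ± 0.15 (adjusted p = 0.40) by the authors' deposited table. Its paralog ULK2, with a mean level of 163, stood at 0.19 ± 0.24 by the authors' deposited table. The scaffold subunits lay closer to 0: ATG13 at 0.04 ± 0.15 and RB1CC1, also called FIP200, at 0.03 ± 0.20 by the authors' deposited table. ATG101, which binds and stabilises ATG13, is listed under its older symbol C12orf44, a row the name rule did not take, at -0.02 ± 0.16 by the authors' deposited table. The 5 subunits thus had no called change and estimates between -0.21 and 0.19 on the log2 scale.

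The PI3-kinase complex that produces phosphatidylinositol 3-phosphate at the nascent membrane also gave 0 calls, among 5 genes, with 1 at an unadjusted p of 0.05, by the authors' DESeq2-type table. Its catalytic subunit PIK3C3, also called VPS34, stood at -0.13 ± 0.14 and its regulatory core BECN1 at 0.11 ± 0.16 by the authors' deposited table. ATG14 directs the complex to autophagosome formation and UVRAG to endosomes; they stood at 0.18 ± 0.16 and 0.27 ± 0.17 by the authors' deposited table. AMBRA1, a BECN1 partner that also serves a ubiquitin ligase, was at 0.32 ± 0.15 (p = 0.039, adjusted p = 0.17) by the authors' deposited table. The median of the 5 was 0.18, with 4 positive values, and no gene reached the size its SE required.

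The proteins that bring and enlarge the membrane gave 0 calls among 5 by the authors' DESeq2-type table, with 1 at an unadjusted p of 0.05. ATG9A, the lipid scramblase of the vesicles that seed the autophagosome, had the lowest value at -0.33 ± 0.15 (p = 0.025, adjusted p = 0.13) by the authors' deposited table. Its partners in lipid transfer, ATG2A and ATG2B, stood at -0.02 ± 0.15 and 0.00 ± 0.18 by the authors' deposited table. The phosphoinositide readers WIPI1 and WIPI2, of which WIPI2 recruits ATG16L1, stood at 0.08 ± 0.14 and -0.08 ± 0.14 by the authors' deposited table.

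In the conjugation machinery 1 of 10 genes was called, a share not read as differing from the 12.9% of all tested genes. ATG7, the E1-like enzyme that activates both ATG12 and the ATG8 proteins, fell 1.5-fold (-0.58 ± 0.14, adjusted p = 0.00082) by the authors' deposited table, the lowest value of the 43 genes. Its 95% interval ran from -0.86 to -0.31. The enzymes that act after it did not pass: the E2-like ATG3, which passes ATG8 proteins on to lipid, stood at 0.04 ± 0.14 and ATG10, the E2 for ATG12, at -0.28 ± 0.18 by the authors' deposited table. The conjugate of ATG12 (-0.21 ± 0.21) and ATG5 (-0.03 ± 0.16) binds ATG16L1 (0.29 ± 0.15, p = 0.043, adjusted p = 0.18), and none of these passed by the authors' deposited table. The interval of ATG7 overlapped those of ATG10, ATG12 and ATG5. It did not overlap those of ATG3, which began at -0.23, and ATG16L1, which began at 0.01. Whether these genes differed in their change was not tested.

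The ATG4 proteases prepare ATG8 proteins for conjugation and later release them from the membrane. ATG4A stood at 0.15 ± 0.15, ATG4B, the most active paralog in cells, at -0.01 ± 0.16, and ATG4C at -0.05 ± 0.24 by the authors' deposited table. ATG4D had 0.31 ± 0.17 (p = 0.067, adjusted p = 0.24) by the authors' deposited table. None of the 4 passed, and the median of all 10 conjugation genes was -0.02, with 4 positive and 6 negative values.

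The ATG8 proteins, which coat the autophagosome and hold cargo receptors, gave 1 call among 5, against 12.9% of all tested genes. Their values ran from -0.54 to 0.41, and those of the conjugation genes from -0.58 to 0.31. GABARAP fell 1.45-fold (-0.54 ± 0.14, adjusted p = 0.0024) by the authors' deposited table. It did not pass when set against the median of genes in its decile of mean level (-0.38, adjusted p = 0.056). Its paralog GABARAPL1 had 0.41 ± 0.17 (p = 0.019, adjusted p = 0.10), of the other sign and not passing by the authors' deposited table, while GABARAPL2 stayed at -0.04 ± 0.16. The interval of GABARAP, -0.81 to -0.26, and that of GABARAPL1, 0.07 to 0.75, did not overlap. This pair held the lowest and the highest of the 5 values, and whether these genes differed in their change was not tested. Of the LC3 genes, MAP1LC3B, whose lipid-bound protein is the usual marker of autophagosomes, had 0.38 ± 0.15 (p = 0.013, adjusted p = 0.080) by the authors' deposited table, and MAP1LC3A 0.02 ± 0.18. MAP1LC3B passed when fold changes were set against the median of all tested genes (0.43, adjusted p = 0.041).

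Some of these genes have near-identical copies whose reads the authors' counting could have shared. MAP1LC3B2, a copy of MAP1LC3B, had a mean level of 122 against 15676 and a value of 0.17 ± 0.27 by the authors' deposited table. GABARAPL3, a copy of GABARAPL1, was at 1.42 in mean level and was not tested by the authors' deposited table. NBR1, a cargo receptor that binds ubiquitin and ATG8 proteins, had the smallest SE of the 43 genes and stood at 0.01 ± 0.13 by the authors' deposited table. Its 95% interval ran from -0.25 to 0.26.

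Among lysosomal membrane proteins 1 of 4 was called, a count too small to set apart from the 12.9% of all tested genes. NPC1, which moves cholesterol out through the lysosomal membrane, rose 1.33-fold (0.41 ± 0.14, adjusted p = 0.034) by the authors' deposited table. It did not pass an adjusted p of 0.01. LAMP1 and LAMP2, the heavily glycosylated proteins that line the membrane, stood at -0.06 ± 0.14 and -0.29 ± 0.20 by the authors' deposited table. LAMP2 also encodes the receptor of chaperone-mediated autophagy as a splice form, and the table does not resolve splice forms. MCOLN1, the calcium channel through which lysosomes can activate TFEB, is given above with the E-box genes.

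The lysosomal enzymes gave 0 calls among 6 by the authors' DESeq2-type table, with 1 at an unadjusted p of 0.05. That gene was the cysteine protease cathepsin L, listed under its older symbol CTSL1, at 0.43 ± 0.16 (p = 0.0086, adjusted p = 0.061), the highest value of the 43 by the authors' deposited table. It passed against the median of all tested genes (0.48, adjusted p = 0.032). The other cathepsins did not share its sign throughout: cathepsin B (CTSB) stood at -0.26 ± 0.15, cathepsin D (CTSD), the main aspartic protease, at -0.19 ± 0.16, and CTSA, which protects sialidase and beta-galactosidase, at 0.02 ± 0.16 by the authors' deposited table. Of the glycosidases, GLA, deficient in Fabry disease, had -0.23 ± 0.15 and HEXA, deficient in Tay-Sachs disease, 0.08 ± 0.15 by the authors' deposited table.

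Set side by side, initiation (0 of 4 called, median 0.03), conjugation (1 of 10, median -0.02), lysosomal enzymes (0 of 6, median -0.09) and lysosomal membrane proteins (1 of 4, median 0.00) had medians within 0.1 of 0. So had membrane supply (0 of 5, median -0.02), the ATG8 proteins (1 of 5, median 0.02) and the transcription factors (0 of 3, median -0.02), while the PI3-kinase complex (0 of 5) had a median of 0.18. The 30 genes of the autophagy machinery as a whole had 2 calls (6.67%) and a median of 0.01. The 10 lysosomal genes had 1 call and a median of -0.02. Each role held few genes, no share is read as differing from the 12.9% of all tested genes, and the difference between roles was not tested.

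Beyond the 43, 6 further lists of the same pathway held 145 tested genes, of which 7 rose and 3 fell (6.90% called, against 12.9% of all tested genes). Among 29 other genes of the autophagy machinery 2 rose and 0 fell. EPG5 and PLEKHM1, effectors of RAB7 that tether autophagosomes to lysosomes, rose 1.67-fold (0.74 ± 0.16, adjusted p = 0.00011) and 1.5-fold (0.58 ± 0.15, adjusted p = 0.0016) by the authors' deposited table. The pseudogene PLEKHM1P, a copy of PLEKHM1 whose reads may be shared with it, was 2.17-fold higher (1.12 ± 0.22) at a mean level of 329 by the authors' deposited table. The cargo receptor SQSTM1, also called p62 and named with its value known, stood at 0.10 ± 0.14 by the authors' deposited table.

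The genes through which lysosomes report nutrients to mTORC1 included the largest change of all 6 lists. RRAGA, a Rag GTPase that holds mTORC1 at the lysosome, fell 2.45-fold (-1.29 ± 0.15, adjusted p = 1.08e-16) by the authors' deposited table. RRAGC, one of its dimer partners, rose 1.44-fold (0.53 ± 0.15, adjusted p = 0.0069) by the authors' deposited table. RRAGB and RRAGD, the paralogs of these genes, named with their values known, stood at 0.09 ± 0.19 and -0.03 ± 0.16 by the authors' deposited table. FNIP2, a partner of the RagC regulator folliculin, rose (0.72 ± 0.19, adjusted p = 0.0029), as did TSC1, a subunit of the complex that restrains RHEB (0.62 ± 0.14, adjusted p = 0.00044), by the authors' deposited table. In all 3 of these 22 genes rose and 1 fell, or 18.2% called, against 12.9% of all tested genes; with 22 genes, this share is not read as differing from it. MTOR itself, likewise named with its value known, stood at 0.08 ± 0.14 by the authors' deposited table.

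**Figure D4:**
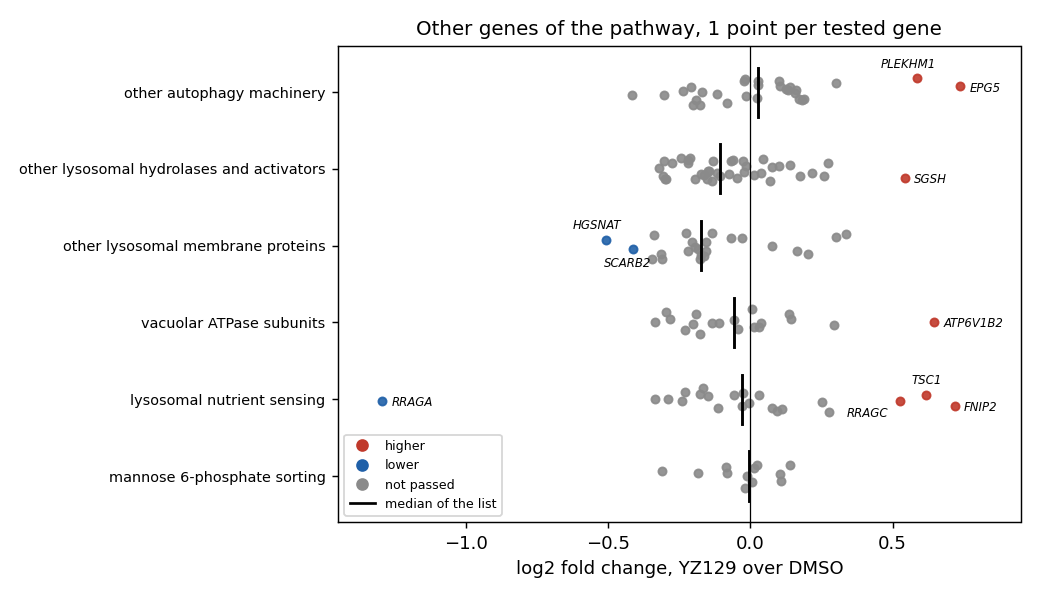
Log2 fold change of YZ129 over DMSO for the tested genes of 6 further pathway lists, 1 point per gene, with the median of each list as a bar. RRAGA at -1.29 lies apart from all other points, and the medians lie between -0.17 and 0.03.

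The other lysosomal lists are given beside all tested genes, of which 12.9% were called (5.24% rose and 7.64% fell). Their counts are small, and no share is read as differing from these. Among 39 other hydrolases and their activators 1 rose and 0 fell: SGSH, which degrades heparan sulfate, at 0.54 ± 0.16 (adjusted p = 0.010) by the authors' deposited table. Among 24 other membrane proteins 0 rose and 2 fell: HGSNAT, the acetyltransferase of heparan sulfate breakdown, at -0.51 ± 0.15 (adjusted p = 0.0069) and SCARB2, the receptor that carries glucocerebrosidase to lysosomes, at -0.41 ± 0.15 (adjusted p = 0.049) by the authors' deposited table. Against the median of all tested genes SCARB2 no longer passed. In these lists together 46 of 63 values were negative with a median of -0.14. Of all tested genes 8302 of 14812 were negative, with a median of -0.05, and of those at mean levels of 1000 or more 4941 of 7377, with a median of -0.11. Of 19 subunits of the vacuolar ATPase, the pump that acidifies lysosomes, ATP6V1B2 rose (0.65 ± 0.14, adjusted p = 0.00022) and the other 18 did not pass by the authors' deposited table. The 12 tested genes of mannose 6-phosphate sorting gave 0 calls, with 1 at an unadjusted p of 0.05, by the authors' DESeq2-type table.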

How the data were processed

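Poly(A) RNA of U87 cells was sequenced in 2 DMSO and 2 YZ129 libraries, grouped by the sample titles. Tools named by the submitters' processing notes are TopHat2 2.0.12, Cufflinks 2.2.1 and Cuffdiff, with the build hg19. Per the file headers, the deposited columns bear the names DESeq2 writes; the sources used here do not give its version, the read counter or the annotation. The authors deposited a mean level per gene, a signal made of counts over size factors. They deposited a log2 fold change with an SE in log2 units, and its Wald score. They deposited the p-value of that score and a p-value adjusted over 14812 genes. The score and both p-values could be recomputed from the fold change and SE. The other 4937 genes (25.0%), with mean levels up to 9.43, carried no adjustment and stayed untested.

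The 36 distinct mean levels of genes with 2 reads equalled all pair sums of 8 steps (tolerance 1e-07), 1 step per library. Genes with both reads in 1 library moved from 0 for 4 of the 8, and by at most 0.55, so fold changes were moderated. It is unknown here whether the 4 further libraries entered the spread, and total reads per library were not analysed here.

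The authors' adjusted p under 0.05 was the call. Computed here (Python 3.11.15, scipy 1.17.1, pandas 2.3.3) were 95% Wald intervals, counts, medians, motif matches and the alternatives, with Wald p-values adjusted again by Benjamini-Hochberg; the adjustment was tested on simulated data. All 43 genes are named, and at most 4 called genes of each further list, by smallest adjusted p; others are marked where named. A gene of the hydrolase list is not reported here and is left out of its counts. The genes and lists were chosen with earlier results of these data known.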

Additional observations from a re-analysis of the deposited data

How the results depend on the processing

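No value per library was at hand, so leaving out a library was not run. No paired analysis was possible because the table holds 1 comparison and no column carries a replicate number. Of the 43 genes, 1 rose and 2 fell as deposited. At an adjusted p under 0.01 the count of rises was 0, and ATG7 and GABARAP still fell. With a log2 change of at least 1 it was 0 rises and 0 falls. An unadjusted p under 0.05 gave 6 rises and 3 falls. Adjusting over all genes with a p-value, or only over those at a mean level of 100 or more, called ATG7, GABARAP and NPC1 again; TFEB is not in the latter set. Centring changed the balance. Against the median of all tested genes 3 rose (NPC1, CTSL1 and MAP1LC3B) and 2 fell, and the share of rises among all calls went from 40.7% to 51.9%. Against the median of genes in the same decile of mean level 4 rose, with GABARAPL1 added (0.50, adjusted p = 0.037), 1 fell, and GABARAP did not pass (-0.38, adjusted p = 0.056); the share of rises was 53.4%. ATG7 was called in all settings but the minimum fold. The median of the 43 was 0.01 as deposited, 0.01 with the level filter, 0.06 against the median of all tested genes and 0.10 against that of the level decile. The cause of these shifts was not tested.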

Other observations

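All tested genes whose RefSeq promoter windows hold the E-box motifs were also counted, whatever their function. Of 1285 tested genes with the core CACGTG, 75 rose and 110 fell (14.4% called), against 12.8% of the 10435 tested genes with a window under the same symbol. Of 226 with the 8-base palindrome TCACGTGA, 17 rose and 12 fell (12.8%), with a median of 0.00. Of 86 with the 10-base palindrome, 6 rose and 3 fell (10.5%), with a median of -0.06, close to the -0.07 of all genes with a window. The counts describe the table and were not tested.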
